A study of Mus musculus with 6 samples.

Results

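The 42 genes described here encode enzymes that break down amino acids in the liver and run the methionine cycle, out of 35527 genes quantified in mouse liver tumors. They were chosen by name: 4 act on histidine, 2 on serine and threonine, 4 on tyrosine, 6 on tryptophan, 2 on lysine and 8 on the branched-chain amino acids. A further 3 are aminotransferases or a related lyase, 6 belong to the glycine and sarcosine route, and 7 to the methionine cycle and transsulfuration. The transcripts of each gene were summed to 1 value.

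The tumors came from CMRtdT mice, which carry a Ctnnb1 allele whose exon 3 is flanked by loxP sites, the MUP-uPA transgene and a Cre-dependent tdTomato reporter at ROSA26. Both mice started a high-fat diet at week 6 and received AAV8-TBG-Cre through the tail vein at week 8. Cre driven by the hepatocyte promoter TBG removes exon 3 and leaves a stabilized β-catenin, while MUP-uPA is expressed in hepatocytes and injures them. Macroscopic tumors were excised 6.5 months after the virus, 3 from each of 2 mice, and 1 library per tumor was sequenced. The study's methods give male mice of a C57BL/6 background that were kept without food for some hours before sacrifice. Every tumor therefore shares genotype, virus, diet and time, and the animal is the only labelled grouping. Non-tumor liver was not analysed here, so no value below is a change from normal liver. Tumors are written M1T1, M1T2 and M1T3 for mouse 1 and M2T1, M2T2 and M2T3 for mouse 2, and lists of 6 values follow that order. Levels are in TPM, a measure corrected for transcript length and library size, so that levels of different genes in a tumor can be compared.

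The liver is the main site of amino acid breakdown. Hepatocytes strip amino groups through aminotransferases, degrade the carbon skeletons of tyrosine, tryptophan, histidine and lysine in mostly liver-restricted pathways, and pass the nitrogen to urea and glutamine. In the methionine cycle, methionine is activated to S-adenosylmethionine, the methyl donor of the cell, and the homocysteine that remains is either methylated again or drained through transsulfuration toward cysteine. The branched-chain amino acids and the glycine cleavage system are different in that their mitochondrial enzymes are present in many tissues.

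The libraries held between 19130532 and 27681766 estimated counts. M1T1 stood far from the other 5 tumors. Summed over 7 hepatocyte markers (Alb, Apoa1, Ttr, Apob, Fgb, Serpina1c and Hnf4a), M1T1 had 1111 TPM and the others 17044 to 31202 TPM, and all 7 markers were lowest in M1T1. The labelled liver tissue therefore had its defining markers in the other 5 tumors and low levels of them in M1T1. Markers of proliferation summed to 281 TPM in M1T1 and to 15.4 to 22.8 TPM elsewhere, with all 4 highest in M1T1. Markers of the other cell types of the liver also varied. The 9 macrophage markers summed to 109 TPM against 205 to 746 TPM, 6 endothelial markers to 11.6 against 36.8 to 84.98 TPM, 7 stellate and fibroblast markers to 38.4 against 22.7 to 82.8 TPM, 4 cholangiocyte markers to 11.2 against 0.441 to 5.84 TPM, 6 T and B cell markers to 1.17 against 3.23 to 7.87 TPM, and 4 erythroid markers to 1574 against 983 to 10988 TPM. Of the cholangiocyte markers 3 were highest in M1T1, while Sox9 was at 0.715 TPM there, 30.3% of the median of the others. In bulk tumors, fewer hepatocytes and less RNA per hepatocyte cannot be told apart. M1T2 and M1T3 were the most alike pair. Over 11220 genes with at least 50 counts in both, the median chi-square of their counts was 1.44, against 0.455 from sampling alone and 6.76 to 31.6 in the other pairs without M1T1. They differ by more than sampling noise, which 2 libraries of 1 tumor could also do, so this cannot show separate growths. They are kept as 2 tumors after their labels.

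Member genes made up 0.622%, 0.650%, 0.427%, 0.389% and 0.651% of all TPM in M1T2, M1T3, M2T1, M2T2 and M2T3, and 0.0803% in M1T1. The most abundant in the 5 hepatocyte-marker-rich tumors were Hpd at 781 ± 329.5 TPM (SD, n = 5), Tdo2 at 552 ± 215 TPM (SD, n = 5), Ahcy at 488 ± 153 TPM (SD, n = 5), Hgd at 414 ± 70.0 TPM (SD, n = 5) and Mat1a at 399 ± 109 TPM (SD, n = 5). The rank of Tdo2 depends on counting a transcript of 612 bases without a defined coding sequence. This had 254, 333, 161, 186 and 162 TPM in M1T2, M1T3, M2T1, M2T2 and M2T3. At the other end, Hal, Sds and Sdsl had means under 1 TPM, which leaves 39 members for counts of order and distance.

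**Figure D1:**
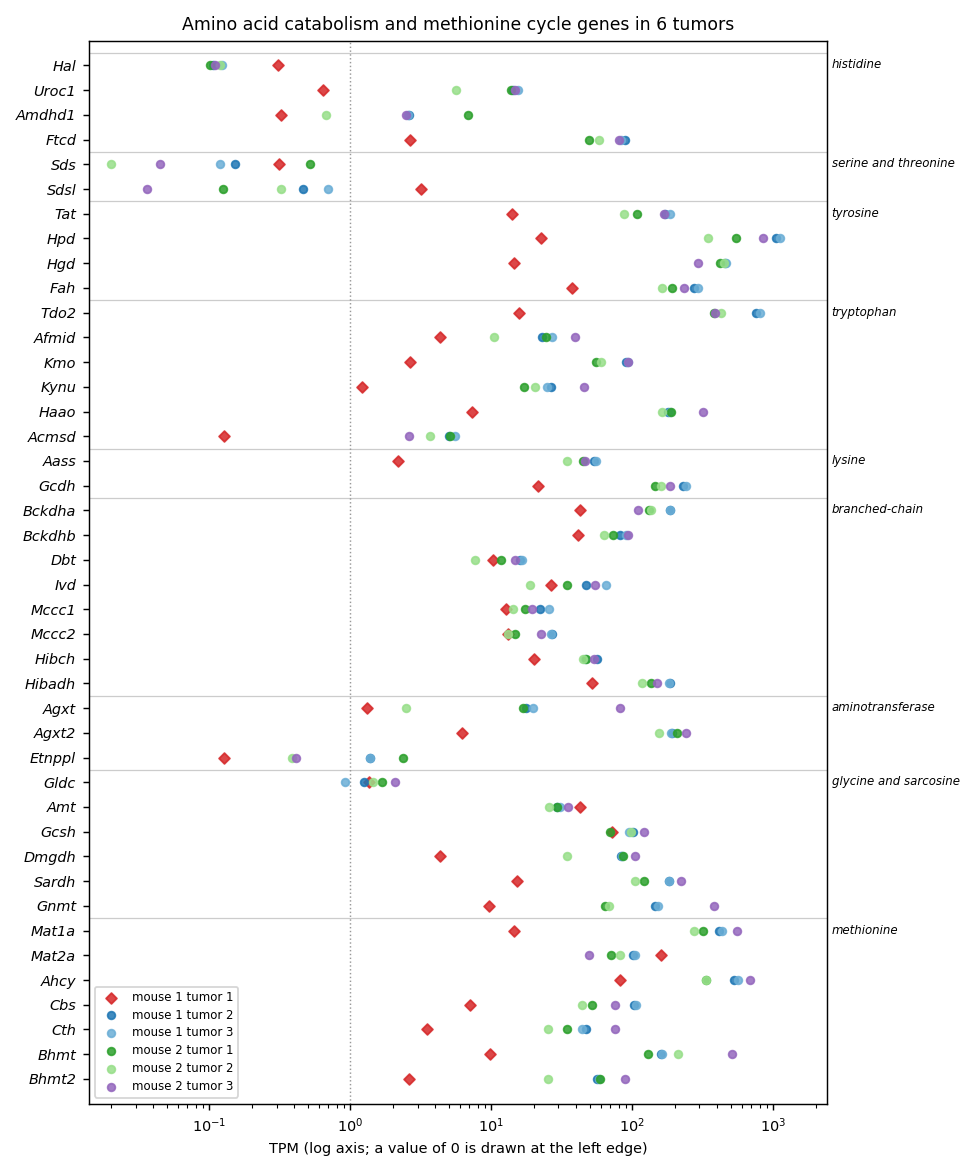
TPM of each of the 42 member genes in the 6 tumors, on a log axis and grouped by pathway, with a red diamond for tumor 1 of mouse 1 and circles for the other 5 tumors. The red diamond is lowest in 32 of the 39 members with a mean of at least 1 TPM (38 after TMM), while the branched-chain genes and the glycine cleavage genes (Gldc, Amt, Gcsh) lie closer together.

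In 32 of the 39 members M1T1 had the lowest level, against 22.2% of 12512 genes. After scaling by TMM (trimmed mean of M-values, which sets most genes level between libraries) it did so in 38 members, all but Mat2a, against 36.2% of genes. Dixon's ratio, the gap from an extreme tumor to its neighbour divided by the whole range on a log2(TPM + 1) scale, exceeded its 95% critical value with M1T1 lowest in 23 of 39 members, where 9.15% of genes did so. It did so with M1T1 highest in 0 of 39 members, where 28.5% of genes did. As a percent of the median of the other 5 tumors, the level in M1T1 had a median of 8.37% over the members and of 173% over all 11321 genes that averaged 1 TPM or more in the 5 tumors. It was at or under 10% in 22 of 39 members, against 9.67% of all genes. By the same measure the 7 hepatocyte markers had a median of 4.57%, and their part in these differences was not tested. These counts describe a tumor that was recognized by its expression, and no test was made of it. The levels are unequal between pathways, as set out below.

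The sequences before the genes differ as well, and 3 promoters show the range. The members with the most CpG dinucleotides among those above 10% in M1T1 are Mat2a and Hibadh, while Tdo2, with 3, was at 3.68%. They were chosen after the levels were seen. Each line gives the 250 bases before the start of the gene from RefSeq on GRCm38.p6, 5′ to 3′ in the direction of transcription, with every CG in capitals. The windows are chr6:72439557-72439806 on the minus strand for Mat2a, chr6:52640301-52640550 on the minus strand for Hibadh and chr3:81975729-81975978 on the minus strand for Tdo2.
Mat2a: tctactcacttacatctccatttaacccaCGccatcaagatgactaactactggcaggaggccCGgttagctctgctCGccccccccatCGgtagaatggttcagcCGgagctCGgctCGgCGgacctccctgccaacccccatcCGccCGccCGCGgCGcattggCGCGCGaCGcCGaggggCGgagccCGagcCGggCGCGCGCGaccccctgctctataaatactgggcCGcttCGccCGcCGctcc
Hibadh: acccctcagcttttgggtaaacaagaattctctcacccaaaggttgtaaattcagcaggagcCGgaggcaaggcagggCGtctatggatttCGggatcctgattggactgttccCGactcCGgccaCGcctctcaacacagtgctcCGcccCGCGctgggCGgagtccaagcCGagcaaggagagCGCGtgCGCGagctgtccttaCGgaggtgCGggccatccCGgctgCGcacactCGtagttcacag
Tdo2: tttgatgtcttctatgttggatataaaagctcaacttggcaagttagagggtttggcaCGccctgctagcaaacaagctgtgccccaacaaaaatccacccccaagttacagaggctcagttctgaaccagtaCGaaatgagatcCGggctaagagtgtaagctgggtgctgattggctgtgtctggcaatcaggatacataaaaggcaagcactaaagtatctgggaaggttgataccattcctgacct
The Mat2a window holds 29 CG and that of Hibadh 20.

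Promoter sequences were matched for 36 of the 42 members, and not for Sds, Sdsl, Mat1a, Cth, Kynu and Dbt. The window ended at the annotated start of the gene in 22 of the 36, as in the 3 shown, and lay 16 to 4358 bases further in, before another transcript start, in 14. Among the 35 matched members with a mean of at least 1 TPM, the 19 at or under 10% in M1T1 had a median of 3 CG (0 to 21) and the 16 above it a median of 12 (2 to 29). Over all matched genes the medians were 4 for 775 genes and 17 for 7972 genes. Spearman's rho between the CG count and the percent kept in M1T1 was 0.50 over the 35 members and 0.26 over 8747 genes. Over the 21 of the 35 members whose window ended at the gene start, rho was also 0.50, with medians of 4 CG for 11 members and 17 for 10. It is a description across genes of the same libraries, which are not independent replicates. Exceptions went both ways. Cbs, Bhmt2 and Dmgdh had 21, 20 and 16 CG and were at 9.49%, 4.51% and 5.13% in M1T1, while Mccc1 and Amt had 2 and 3 CG and were at 65.2% and 146%. A search of both strands found TATAAA in 6 of the 36 windows (13.0% of 27025 RefSeq promoters), the TCF/LEF core ATCAAAG in 3 (3.23%), the HNF4 string CAAAGTCCA in 1 (0.381%) and the HNF1 string GTTAATNAT in 0 (0.781%). Hal, Haao and Agxt2 held ATCAAAG, and Agxt2 also held CAAAGTCCA. These matches describe letters in the windows and nothing about binding.

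**Figure D2:**
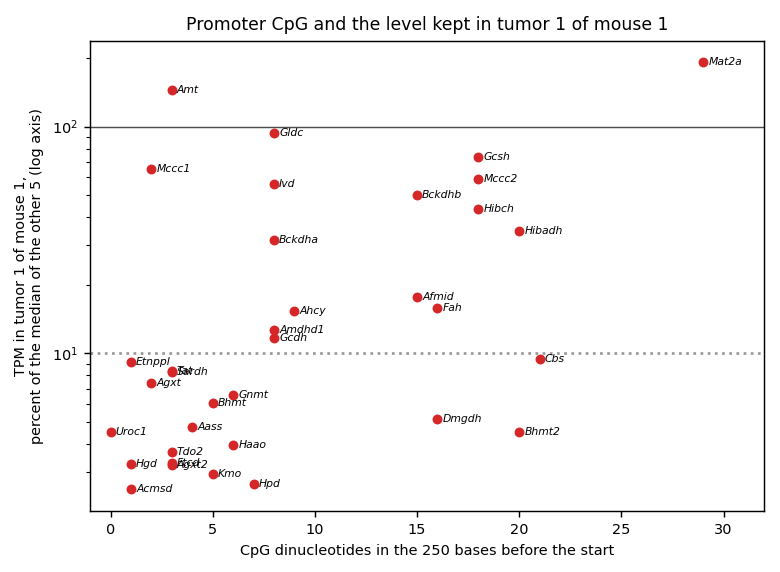
Level in tumor 1 of mouse 1 as a percent of the median of the other 5 tumors (log axis) against the number of CpG dinucleotides in the 250 bases before the start of a transcript, for 35 members. Members with few CpG lie mostly under the dotted line at 10%, and Bhmt2, Cbs, Dmgdh, Amt and Mccc1 lie away from that pattern.

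The histidine pathway runs from Hal, the histidase that opens it, over Uroc1 (urocanase) and Amdhd1 (imidazolonepropionase) to Ftcd, which moves the formimino group to tetrahydrofolate. Hal, which lies beside Amdhd1 on chromosome 10 (chr10:93488768-93516761 and chr10:93523338-93540111), had 0.309, 0.106, 0.123, 0.101, 0.118 and 0.110 TPM, from 14, 9, 13, 10, 5 and 10 reads. The entry enzyme was thus near its detection limit in every tumor, and 3 reads would correspond to between 0.0284 and 0.0711 TPM. The later enzymes were present. Ftcd had 2.63, 88.5, 83.2, 49.3, 58.3 and 80.4 TPM, or 71.9 ± 17.1 TPM (SD, n = 5) without M1T1. Uroc1 had 0.645, 14.3, 15.6, 13.9, 5.62 and 14.8 TPM. It was similar in 4 tumors, lower in M2T2 and lowest in M1T1. Amdhd1 had 0.324, 2.63, 2.56, 6.84, 0.670 and 2.49 TPM, with M2T1 the highest of the tumors and M2T2 the lowest of the 5 other than M1T1.

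The serine and threonine dehydratases were also low. Sds, which converts serine to pyruvate and ammonia in the periportal liver, had 0.312, 0.153, 0.119, 0.519, 0 and 0.0447 TPM, from at most 6.7 estimated reads in any tumor. The neighbouring Sdsl, a related gene (chr5:120476547-120483932 and chr5:120458193-120472825), had 3.17, 0.465, 0.698, 0.124, 0.322 and 0.0363 TPM. M1T1, with 61 reads, was the highest for Sdsl, and the other 5 tumors had 1 to 19 reads.

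Tyrosine breakdown was the most abundant of the aromatic pathways. Tat transfers the amino group of tyrosine, Hpd makes homogentisate, Hgd opens its ring and Fah splits fumarylacetoacetate into fumarate and acetoacetate. Tat had 13.97, 170.2, 186, 109, 87.1 and 167 TPM and a mean of 122 ± 65.5 TPM (SD, n = 6). Hpd had 22.5, 1042, 1123, 546, 346 and 846 TPM and a mean of 654 ± 427 TPM (SD, n = 6). The level of Hpd in M2T2 was the lowest of the 5 tumors, and that in M1T1 was 2.66% of their median. Hgd had 14.5, 452, 462, 416, 448 and 293 TPM. It ran opposite to Hpd among the mouse 2 tumors, since M2T3, and not M2T2, was the lowest of the 5. M2T3 was the lowest of the 5 in 4 of the 39 members and in 6228 of 11321 genes. Fah had 37.2, 273, 294, 192, 162 and 235 TPM, and at 15.8% it was the member of the 4 that M1T1 kept at the highest share. Gstz1, which isomerizes maleylacetoacetate between the steps of Hgd and Fah, had 49.7 TPM in M1T1 and 370.4 to 511 TPM elsewhere.

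Tryptophan is degraded along the kynurenine pathway. Tdo2, the dioxygenase that opens the indole ring and sets the entry rate (chr3:81958412-81975728), had 15.7, 761, 811, 381, 425 and 383 TPM. M1T2 and M1T3 lay above the mouse 2 tumors, whose values were close to each other. Afmid, which releases kynurenine, had 4.31, 22.9, 27.2, 24.4, 10.5 and 39.6 TPM. Kmo, which hydroxylates kynurenine, had 2.65, 90.6, 93.2, 55.6, 59.6 and 93.9 TPM. The following enzyme Kynu had 1.21, 26.4, 24.7, 17.2, 20.5 and 45.2 TPM, and Haao, which makes the precursor of quinolinate, had 7.28, 180.4, 185, 189, 163 and 319 TPM. For both, M2T3 was the highest of the tumors, and for Haao it stood apart from the other 4 hepatocyte-marker-rich tumors (Dixon's ratio 0.779). Acmsd, which diverts the pathway away from quinolinate and so from NAD, had 0.126, 5.02, 5.53, 5.09, 3.67 and 2.61 TPM and was lowest of the 5 in M2T3. The pair Haao and Acmsd thus had opposite extremes in the same tumor. In TPM, most genes were lowest of the 5 in M2T3 (6228 of 11321), as Acmsd was, and few were highest there (976). All 6 genes were lowest in M1T1, with a median of 3.81% of the other tumors, the lowest of the pathways.

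Lysine is taken apart by Aass, the bifunctional enzyme of the saccharopine pathway, and later by Gcdh, the glutaryl-CoA dehydrogenase of mitochondria. Aass had 2.17, 53.3, 55.7, 44.7, 34.6 and 45.9 TPM, and Gcdh had 21.5, 230.1, 242, 145, 159.7 and 184 TPM. Both stood apart as lowest in M1T1, and among the other 5 the highest level was 1.61 and 1.66 times the lowest.

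The branched-chain genes were different in M1T1. Bckdha, Bckdhb and Dbt encode the E1 alpha, E1 beta and E2 subunits of the branched-chain ketoacid dehydrogenase, Ivd acts on isovaleryl-CoA, Mccc1 and Mccc2 form methylcrotonyl-CoA carboxylase, and Hibch and Hibadh belong to valine. In M1T1 they had 31.5% to 70.4% of the median of the other 5 tumors, with a median of 52.9%, and none of the 8 was at or under 10%. These shares count all transcripts of a gene. For Bckdhb and Ivd, short transcripts without a defined coding sequence held part of the M1T1 level, as given below. Bckdha had 42.5, 187, 185, 132, 135 and 109.8 TPM, and Bckdhb had 40.9, 82.0, 90.9, 73.2, 63.5 and 93.0 TPM. The ratio of Bckdha to Bckdhb was 1.04 in M1T1 and 1.18 to 2.28 in the other tumors. It depends on counting a Bckdhb transcript of 540 bases without a defined coding sequence. This had 18.1, 0, 0, 7.03, 7.44 and 16.3 TPM, in M1T1 from 96.2 of 613.3 reads. Dbt had 10.4, 16.02, 16.4, 11.7, 7.72 and 14.7 TPM, so that M2T2 and not M1T1 was the lowest, as it also was for Ivd and Mccc2. After TMM M1T1 was the lowest in all 3, at 6.43 against at least 8.36 for Dbt, 16.3 against 20.3 for Ivd and 8.20 against 14.3 for Mccc2. Ivd had 26.3, 47.1, 65.2, 34.4, 18.7 and 54.9 TPM. Its protein-coding transcript alone had 13.2, 38.0, 40.1, 18.2, 12.6 and 34.7 TPM. In M1T1, 8.06 TPM came from 30.7 reads on a retained-intron transcript of 446 bases. Mccc1 and Mccc2, whose products join in 1 enzyme, kept a ratio between 0.831 and 1.18 in all 6 tumors. Hibch had 20.2, 55.9, 46.4, 46.7, 44.6 and 53.7 TPM, and Hibadh had 52.0, 186, 182, 137, 116 and 149.8 TPM. TMM scaling gave lower percents in M1T1, 17.3% to 40.5% for the branched-chain genes and 1.35% to 8.54% for the tyrosine genes, so these groups stayed apart.

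**Figure D3:**
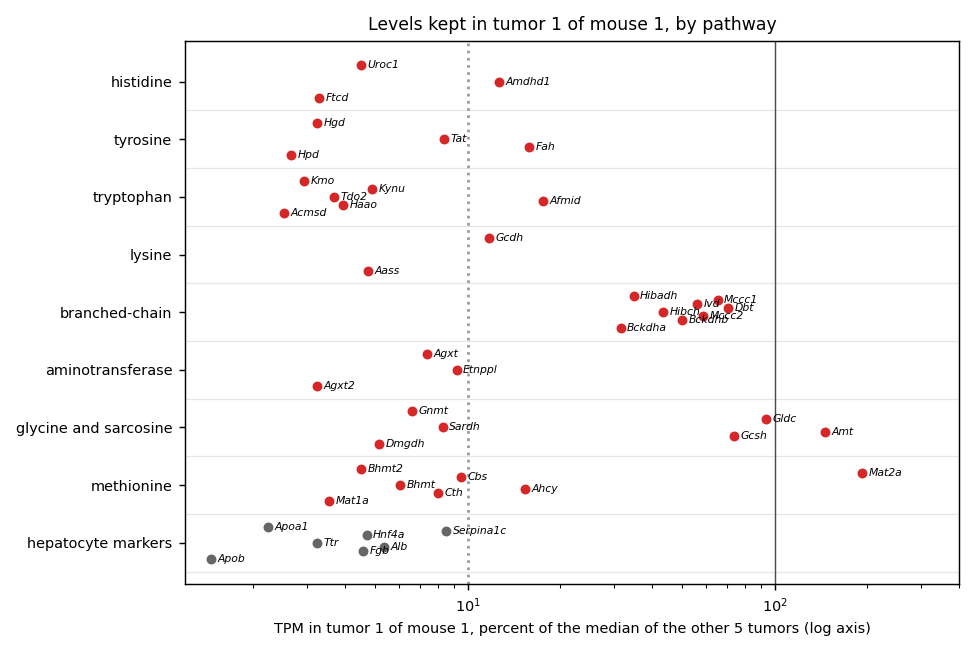
TPM in tumor 1 of mouse 1 as a percent of the median of the other 5 tumors (log axis), for the 39 members with a mean of at least 1 TPM by pathway and for 7 hepatocyte markers in grey. The branched-chain genes lie between 31.5% and 70.4%, while the tryptophan genes have a median of 3.81%. Mat2a at 193% and Amt at 146% lie above 100%, and under TMM scaling they come to 110% and 87.9%.

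Among the aminotransferases, Agxt2, which uses glyoxylate and degrades beta-aminoisobutyrate, had 6.20, 192, 189, 209, 154 and 241 TPM. It was even among the 5 tumors and at 3.23% in M1T1. Agxt, the peroxisomal enzyme that detoxifies glyoxylate, had 1.31, 17.7, 19.8, 16.8, 2.51 and 81.2 TPM. Among the 5 tumors its highest level was 32.4 times its lowest, the widest of the 39 members, with M2T3 at the top and M2T2 at the bottom. Etnppl, which breaks down phosphoethanolamine, had 0.127, 1.38, 1.38, 2.35, 0.387 and 0.412 TPM, at low levels in all tumors and highest in M2T1.

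In the glycine and sarcosine route, Gldc, Amt and Gcsh encode the P, T and H proteins of glycine cleavage. Gldc had 1.36, 1.25, 0.916, 1.67, 1.44 and 2.09 TPM, Amt had 42.7, 29.3, 30.6, 29.1, 25.5 and 35.1 TPM and Gcsh had 72.1, 101, 95.5, 69.4, 97.7 and 120.3 TPM. The mRNA of the P protein was therefore at 0.916 to 2.09 TPM, beside Gcsh at 69.4 to 120.3 TPM, and M1T1 had 94.1%, 146% and 73.8% of the median of the others for the 3 genes. These shares depend on the scaling. After TMM they were 53.9%, 87.9% and 44.6%, and M1T1 was then the lowest of the 6 tumors in all 3 genes. The sarcosine enzymes were lower in M1T1 on either scale. Dmgdh and Sardh, mitochondrial enzymes that demethylate dimethylglycine and sarcosine, had 4.34, 83.3, 84.5, 85.7, 34.7 and 105 TPM and 15.1, 183, 182, 122, 105 and 220.1 TPM. Gnmt, which makes sarcosine from glycine and uses up S-adenosylmethionine, had 9.62, 146, 152, 64.2, 68.0 and 381 TPM. M2T3 was the highest of the 5 tumors in all 6 of these genes, and it exceeded the next tumor most for Gnmt.

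The methionine cycle starts with methionine adenosyltransferase, encoded by Mat1a in adult liver and by Mat2a in fetal liver and most other tissues. Mat1a, at chr14:41105012-41124428, had 14.6, 413, 432, 319, 274 and 555 TPM and a mean of 335 ± 185 TPM (SD, n = 6). Mat2a, at chr6:72432796-72439556, had 159, 102, 105, 70.4, 82.5 and 49.1 TPM and a mean of 94.7 ± 37.7 TPM (SD, n = 6). The ratio of Mat1a to Mat2a was 0.0917 in M1T1 and 4.04, 4.13, 4.53, 3.31 and 11.3 in the other tumors. Their order was reversed in M1T1 and most uneven in M2T3. As a ratio within a library, it does not depend on the scaling, but it does depend on the Mat2a transcripts counted. A transcript that keeps the last intron held 72.6 of the 159 TPM in M1T1 and 1.46 to 6.89 TPM in the others. The transcript with all 9 exons, at 77.9 TPM in M1T1, still exceeded Mat1a there. The level of Mat2a itself depends on the scaling. M1T1 had 193% of the median of the others in TPM and 110% after TMM. It was then at 98.7 against at most 103 and no longer the highest.

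Mat2a reads also fell on different transcripts. The deposited tables hold a transcript of Mat2a with all 9 exons and one of 8 exons that keeps the last intron of 585 bases, with 1086 coding bases in place of 1185. Keeping the last intron is a known way in which cells adjust Mat2a to S-adenosylmethionine. The transcript with the intron took 52.6% of the Mat2a reads in M1T1 (3954 of 7515 estimated reads) and 2.25%, 1.71%, 12.0%, 7.25% and 6.65% in the others. The 9-exon transcript had 77.9 TPM in M1T1 and 98.8, 101.7, 60.8, 75.6 and 45.2 TPM in the others. On this transcript M1T1 was within the range of the other 5 in TPM and, at 48.3 against 59.7 to 100.2, below them after TMM. Transcripts annotated with a retained intron held 3.03% of all reads in M1T1 and 0.839% to 1.19% in the others, and the part of this in the Mat2a values was not tested. A transcript gained at least 40 percentage points of its gene's reads in M1T1 in 1 of 29 members with enough reads, which was Mat2a with 46.0 points, and in 2.54% of 7415 genes. The next member was Gcdh with 33.7 points.

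**Figure D4:**
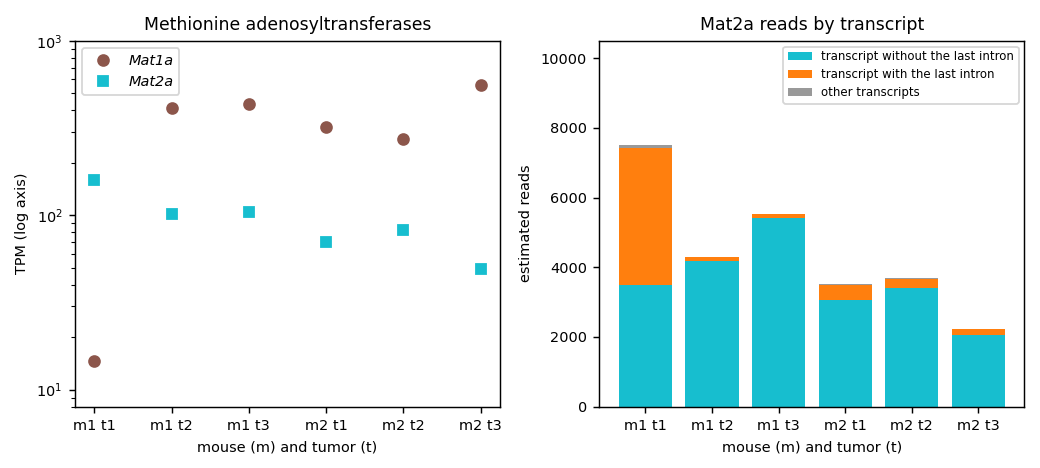
Left, TPM of Mat1a and Mat2a in each tumor on a log axis. Right, estimated reads of Mat2a split by transcript, where the transcript with the last intron holds 52.6% in tumor 1 of mouse 1 and from 1.71% to 12.0% elsewhere. Mat1a exceeds Mat2a in the 5 other tumors and lies below it in tumor 1 of mouse 1.

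Further along the cycle, Ahcy, which splits S-adenosylhomocysteine, had 81.5, 529, 559, 334, 331 and 686 TPM. It was kept in M1T1 at 15.4%, the highest share of the cycle after Mat2a. Cbs and Cth, the enzymes of transsulfuration, had 7.12, 104, 107, 51.5, 44.3 and 75.1 TPM and 3.51, 47.4, 43.8, 34.3, 25.5 and 75.4 TPM. Bhmt and Bhmt2 methylate homocysteine again with betaine or S-methylmethionine, and lie next to Dmgdh on chromosome 13 (chr13:93616891-93637758, chr13:93656097-93674302 and chr13:93674436-93752823). Bhmt had 9.83, 161, 163, 129, 212 and 511 TPM, and Bhmt2 had 2.60, 56.6, 57.7, 59.5, 25.3 and 88.6 TPM. The ratio of Bhmt to Bhmt2 ran from 2.17 in M2T1 to 8.38 in M2T2, so that these neighbours did not keep a fixed proportion. The spans just given do not overlap. In the gene models searched for overlaps, which are not those of these spans, exons of Bhmt2 and Dmgdh overlap on opposite strands. So do those of Tdo2, Kmo, Gnmt and Mat2a with Ctso, Fh1, Pex6 and Ggcx. The same holds for Afmid with Tk1, at 33.0 TPM in M1T1 and a mean of 10.9 TPM in the other 5, and for Gcdh with Syce2, at 20.2 and 4.72 TPM. For the quantification no strand setting is stated in these sources.

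Beyond the 42 genes, 61 other genes of the same pathways were listed, of which 58 had a mean of at least 1 TPM in the 5 tumors. Of these 58, M1T1 was the lowest in 46, against 22.2% of 12512 genes that averaged 1 TPM or more over all 6 tumors. That wider set takes in genes that reach 1 TPM only through M1T1, so its filter differs from that of the 58. M1T1 stood apart as the lowest by Dixon's ratio in 25, against 9.15% of the 12512. Its level was at or under 10% of the others in 14, with a median of 26.2%. Over the 11321 genes that averaged 1 TPM or more in the 5 tumors, these were 9.67% and 173%. Cdo1, the cysteine dioxygenase that follows transsulfuration, had 30.4 TPM in M1T1 and 959 to 1656 TPM in the others, and Chdh, which supplies betaine from choline, had 0.852 against 14.8 to 33.2 TPM. In 8 of the 58 M1T1 was the highest, which was rarer than over the wider set, where it was the highest in 7828 of 12512. In 5 of the 8 it was the highest also after TMM. Mtrr and Mtr, the partner reductase and the synthase that remethylate homocysteine with folate, were among them with 14.3 against 1.85 to 3.97 TPM and 4.20 against 1.09 to 2.45 TPM. So was Mat2b, the regulatory partner of Mat2a, with 59.6 against 15.9 to 30.3 TPM. Bcat2, the mitochondrial branched-chain aminotransferase of tissues outside the liver, had 36.3 against 11.5 to 16.4 TPM. Bckdk, the kinase that switches off the branched-chain dehydrogenase, had 40.6 against 8.67 to 26.8 TPM and was not the highest in M1T1 after TMM.

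Without M1T1, the 39 members varied by a median of 2.12 times between the highest and the lowest of the 5 tumors, and all genes by 2.00 times. In 4 members the span reached 4 times, against 12.6% of genes: Agxt (32.4 times), Amdhd1 (10.2), Etnppl (6.07) and Gnmt (5.93). The order of the tumors was uneven. M2T2 had the lowest level in 26 of the 39 members, against 11.8% of all genes, and in 26 against 19.4% after TMM. M2T3 had the highest in 18 against 8.62%, and in 31 against 21.2% after TMM. Branched-chain genes were lowest in M2T2 in 7 of 8, and the methionine cycle was highest in M2T3 in 5 of 7. M2T2 stood apart as the lowest of the 5 in Uroc1 and Dmgdh (Dixon's ratios 0.881 and 0.788, critical value 0.71), against 0.212% of genes. M2T3 stood apart as the highest in 1 member, Haao, against 0.45% of genes. After TMM, M2T2 stood apart as the lowest in Uroc1 alone (0.645% of genes) and M2T3 as the highest in Haao, Kynu and Bhmt (1.7% of genes). Hepatocyte markers summed to 17044 TPM in M2T2, the lowest of the 5, and to 29324 TPM in M2T3, and macrophage markers to 649 and 205 TPM, and their part in this order was not tested.

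**Figure D5:**
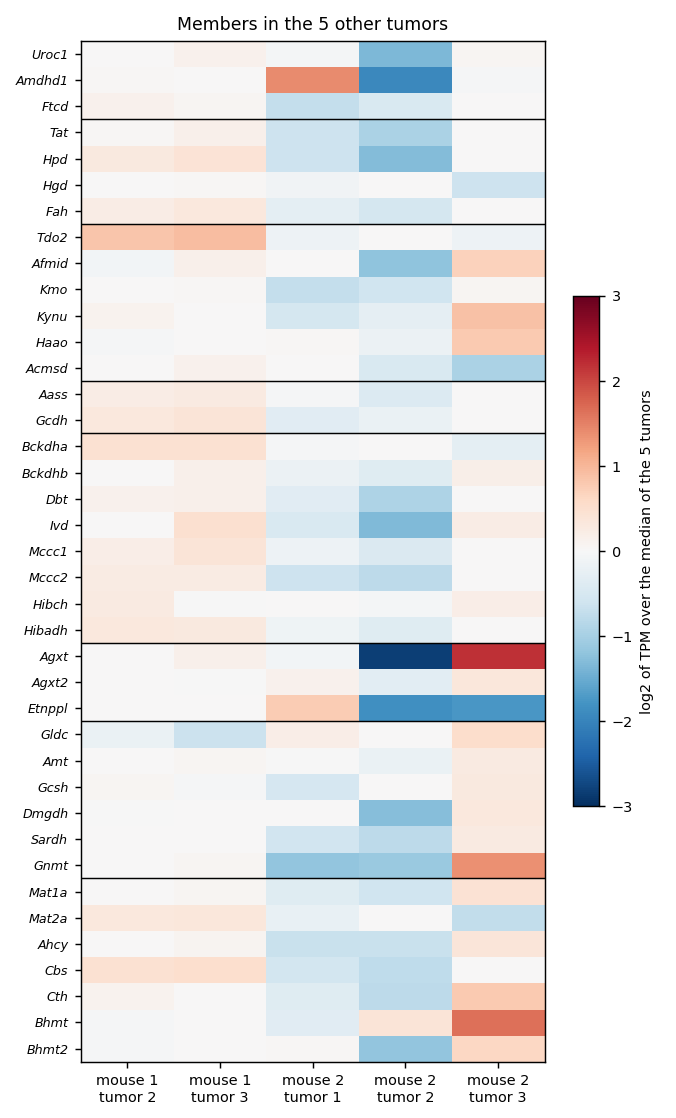
Heat map of log2 of TPM over the median of the 5 tumors, for the 39 members by pathway, without tumor 1 of mouse 1. Tumor 2 of mouse 2 is mostly blue (lowest in 26 members), tumor 3 of mouse 2 is red in the methionine and sarcosine genes (highest in 18 members, or 31 after TMM), and tumors 2 and 3 of mouse 1 have nearly the same colors.

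The 2 mice were compared by edgeR's quasi-likelihood test with Benjamini-Hochberg adjustment over all genes. Tumors of 1 mouse share an animal, so the p-values measure the spread between tumors and the result compares these 2 animals. Without M1T1, mouse 1 is represented by M1T2 and M1T3 alone, the most alike pair. The mitochondrial share of counts was 6.85%, 8.34% and 8.27% in the tumors of mouse 1 and 18.4%, 12.9% and 15.99% in those of mouse 2, and its part in the comparison was not tested. With all 6 tumors, 0 of 13259 genes passed an adjusted p of 0.05 (0%), and 1448 had an unadjusted p under 0.05. DESeq2 called 202 genes and limma-voom 0. None of the 40 members tested was called by any of the 3, and 1, Gldc, had an unadjusted p under 0.05 in edgeR. Without M1T1, 56 genes were higher in mouse 2 (0.419%) and 112 lower (0.838%) of 13365. That balance depended on the method, since DESeq2 had 781 higher and 587 lower, edgeR with library size alone 20 and 131, and edgeR without M2T3 403 and 313. Of the 40 members, 0 passed, with 2 at an unadjusted p under 0.05. DESeq2 called 2 members, Gldc and Tdo2, and 10.2% of all genes, and limma-voom 0 members and 3.58% of genes. The count over all genes rests on single tumors, as it was 0 without M1T2 or M2T1, 2 without M1T3, 300 without M2T2 and 716 without M2T3, where it was 168 with all 5.

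The 5 members with the smallest p without M1T1 were Gldc, Tdo2, Bhmt, Hibch and Amt. Gldc had a log2 difference, mouse 2 over mouse 1, of 1.26 (SE 0.36, adjusted p = 0.143 in edgeR and 0.0334 in DESeq2). Tdo2 had a log2 difference of -0.51 (SE 0.17, adjusted p = 0.186 in edgeR and 0.0416 in DESeq2), with means of 786 TPM in M1T2 and M1T3 and 397 TPM in mouse 2. Bhmt had 1.43 (SE 0.67, edgeR adjusted p = 0.31), with M2T3 at 511 TPM the highest tumor, and 0.49 without M2T3. Hibch had 0.48 (SE 0.23) and Amt 0.55 (SE 0.27), with edgeR adjusted p of 0.314 and 0.317. These fits use TMM, and with library size alone the differences were 0.2 for Hibch and 0.27 for Amt, so their size depends on the scaling. In TPM, a different measure, the means of mouse 1 (M1T2 and M1T3) and mouse 2 were 51.2 and 48.3 for Hibch. They were 29.96 and 29.93 for Amt, so the TPM means did not share the direction of the fits. Without M2T3 the 1 member called of 40 was Gnmt, at -0.72 (SE 0.11, edgeR adjusted p = 0.0349), beside 716 of 13319 genes. With M2T3 included, its Gnmt level of 381 TPM lies above both mouse 1 tumors. Both mouse 1 tumors exceeded all 3 of mouse 2 in 15 of 39 members, against 56.9% of genes, and in 4 against 38.3% after TMM.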

How the data were processed

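RNA from 6 excised tumors was sequenced as poly A enriched, paired libraries per the labels, although the design text speaks of total RNA. The authors deposited 1 transcript table per tumor in the layout of Salmon, holding the estimated count and TPM of each transcript, and TPM is scaled within a tumor. GRCm38, BWA and Picard appear in the submitters' processing notes without a role, and no release of the transcript index is stated there. Estimated counts and TPM were summed per gene symbol with GENCODE vM39 names. Of 116546 transcripts 1733 had no match, and these held 0.373% to 0.68% of counts. Tf had no row under that symbol, so 7 of 8 hepatocyte markers were measured.

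The members, pathway lists and markers were chosen with earlier results of these data known, and all members may be named. Rounded counts were compared between mice with edgeR 4.0.16 (TMM, filterByExpr, quasi-likelihood, two-sided, Benjamini-Hochberg), DESeq2 1.42.0 and limma-voom 3.58.1 in R 4.3.3. Standard errors of edgeR were derived from its F statistic. Other values were computed in Python 3.11.15 with a pseudocount of 1 on log2(TPM + 1). A minimum mean of 1 TPM applied to counts of order. The first listed RefSeq promoter of a gene was used. Library depth of 19130532 to 27681766 estimated counts limits low genes, and 3 counts were taken as the floor. The tests were tried on simulated data. The alternatives were other tools, scalings, filters, pseudocounts, coding transcripts only, leaving out each tumor in turn, and a block for tumor number. Dixon's ratio over 5 tumors, its scalings the percents in M1T1 under other scalings and the promoters at gene starts alone were added after the data were seen.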

Additional observations from a re-analysis of the deposited data

Results flagged for a closer look

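Dixon's ratio on log2(TPM + 1) marked a tumor as far from the others in 25 members over the 6 tumors. Chance alone marks about 1 in 20 sets of normally distributed values. Of 12512 genes that averaged 1 TPM or more over the 6 tumors, M1T1 was marked as the lowest in 1145 and as the highest in 3563. Another tumor was marked in 149. The members share the same 6 libraries, so these marks are not separate events. Among the members, M1T1 was the highest in Hal (0.883) and Sdsl (0.645), both with few reads, 14 and 61 in M1T1. For Hal, 0.171 of the 0.309 TPM in M1T1 came from 1.99 reads on a transcript of 851 bases without a defined coding sequence. M1T1 was the lowest in the rest. Among histidine and tyrosine genes these were Ftcd (0.82), Tat (0.702), Hpd (0.696), Hgd (0.866) and Fah (0.709). Among tryptophan and lysine genes they were Tdo2 (0.806), Kmo (0.841), Kynu (0.693), Haao (0.817), Acmsd (0.663), Aass (0.839) and Gcdh (0.787). Among branched-chain genes and aminotransferases they were Bckdha (0.64), Hibch (0.776), Hibadh (0.631) and Agxt2 (0.873). In the sarcosine route and methionine cycle they were Dmgdh (0.636), Sardh (0.719), Mat1a (0.802), Ahcy (0.657), Cbs (0.665), Cth (0.6251) and Bhmt (0.644).

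Over the 5 other tumors 4 members were marked. Of 11321 genes, 24 were marked with M2T2 lowest and 51 with M2T3 highest. Marks with M2T3 lowest were not counted over all genes. M2T2 was far below the rest in Uroc1 (0.881) and Dmgdh (0.788), M2T3 was far below in Hgd (0.77), and M2T3 was far above in Haao (0.779). After TMM, Uroc1, Haao, Kynu and Bhmt were marked, and Hgd and Dmgdh were not. In TPM, M2T3 was the lowest of the 5 in 6228 of 11321 genes.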

How the results depend on the processing

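The comparison of the mice depended most on the processing. With 6 tumors, DESeq2 called 202 genes where edgeR called 0, and leaving out each tumor in turn gave 0 to 168 genes, with 168 without M1T1. With 5 tumors, edgeR called 168 genes, DESeq2 1368, limma-voom 478 and no filter on low counts 460. Leaving out each tumor gave 0 to 716 genes: 0 without M1T2, 2 without M1T3, 0 without M2T1, 300 without M2T2 and 716 without M2T3. Members called in the 5 tumors were 0 in edgeR, 2 in DESeq2 and 0 to 1 when a tumor was left out. With tumor number as a replicate block, 0 genes were called in the 5 tumors. The numbers do not pair the tumors, since the deviations of same-numbered tumors from their mouse means had r of 0.0247, -0.0425 and 0.0501. With 1 tumor left in an arm after leaving others out, that tumor is assumed to vary like the rest.

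M2T3 was the highest of the 5 in 18 members, and in 31 after TMM. M1T1 was the lowest of the 6 in 32, and in 38 after TMM. Without the filter on low values, M1T1 stood apart as the highest in 2 members, Hal and Sdsl, in place of 0. The level of Amt in M1T1 fell from 146% to 87.9% of the median of the others with TMM. The cause was not tested in any of these. Depth limits Hal, Sds and Sdsl, and 2 animals limit every comparison.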
